A study of Nothobranchius furzeri with 25 samples.

Results

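The aquaporins of the killifish brain were followed from youth to old age. Members were all genes whose name is AQP followed by a number among the names that could be paired with a row of the count table, every copy included, which gave 10 aquaporins among 1994 paired names and 18228 contigs. They are AQP1, AQP3B, AQP4, AQP7, AQP8 (2 OF 3), AQP9B, AQP10A, AQP10B, AQP11 and AQP12. RNA was measured in whole brains of male Nothobranchius furzeri, a short-lived annual fish, of the wild-derived strain MZM-04/10 (written MZM 04/10 in the labels). There were 25 libraries, 5 at each of 5, 12, 20, 27 and 39 weeks of age, with no treatment or genetic change in any group, so that the groups differ in age alone as far as the labels tell. Names of brains such as JM97 are those of the submitters. Library totals ran from 15690560 to 26378519 counts. Levels are given in CPM, counts scaled to the library size after TMM normalization, and changes as log2 fold changes of the older against the younger age from edgeR's quasi-likelihood test, with adjusted p over all 16484 genes tested and a call at an adjusted p under 0.05.

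Aquaporins are membrane channels that pass water down an osmotic gradient. The classical water channels, such as AQP1 and AQP4, pass water and little else, while the aquaglyceroporins (AQP3, AQP7, AQP9 and AQP10) also pass glycerol and urea, and AQP8 passes water together with ammonia and hydrogen peroxide. AQP11 and AQP12 form a distant branch that sits mainly in membranes inside the cell. In the mammalian brain AQP4 is the main water channel of astrocytes and lies in the end-feet that face blood vessels and cerebrospinal fluid, and AQP1 lies in the choroid plexus. Fish keep several copies of many of these genes.

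Names rest on the best match to other species. Of the 10 members, 9 were the best match of their zebrafish gene in both directions (aqp1a.1 for AQP1, aqp8a.2 for AQP8 (2 OF 3)). The row of AQP7 was not, and its zebrafish gene was that of the row C18ORF10, an older name of TPGS2. In the RefSeq annotation of the assembly NfurGRZ-RIMD1, the genes aqp7 and tpgs2 are neighbours that share 209 bases, and the library kit does not mark strand, so that reads of AQP7 and C18ORF10 may not be fully separated. The name AQP8 (2 OF 3) marks 1 of several copies, and reads shared with a close copy would make its value uncertain. Positions in the genome are not given for the contigs.

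Of the 10 aquaporins, 9 passed the filter on low counts and 3 were called in at least 1 of 10 pairwise comparisons of ages. At each of the 4 older ages AQP8 (2 OF 3) was lower than at 5 weeks, AQP3B was lower at 12 than at 5 weeks, and AQP7 was higher at 20 than at 5 weeks. These made 6 calls among 90 values, and all 6 had 5 weeks as one of the ages. For the 4 calls of AQP8 (2 OF 3) this says little, since the gene passed the filter only through its 5-week level. It is 1 of the aquaporins counted as called in each comparison with 5 weeks. In the 6 comparisons among the 4 older ages no aquaporin was called by edgeR, with a lowest adjusted p of 0.2 and 3 of 54 values at an unadjusted p under 0.05. DESeq2 called 0, but did not give every aquaporin an adjusted p. It gave one to 3 aquaporins between 12 and 27 weeks, 3 between 27 and 39 weeks and 7 between 20 and 39 weeks. The others could not be called there. The numbers of calls read against all genes as follows. Between 5 and 12 weeks 2 of 9 aquaporins were called, against 23.6% of all genes tested. Between 5 and 20 weeks 2 of 9 were called, against 31.9%, of which 15.4% were higher and 16.5% lower at 20 weeks. Between 5 and 27 weeks 1 of 9 was called, against 35.4%, and between 5 and 39 weeks 1 of 9, against 36.6%. The share of all genes called was 12.5% between 12 and 39 weeks, 0.989% between 27 and 39 weeks, 0.267% between 20 and 39 weeks, 0.0485% between 12 and 20 weeks and 0.0303% between 12 and 27 weeks. Between 20 and 27 weeks it was 0% with edgeR, with 1598 genes at an unadjusted p under 0.05, and DESeq2 called 21 genes. The test of any difference over all 5 ages called 41.8% of all genes and 1 of 9 aquaporins, AQP8 (2 OF 3).

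**Figure D1:**
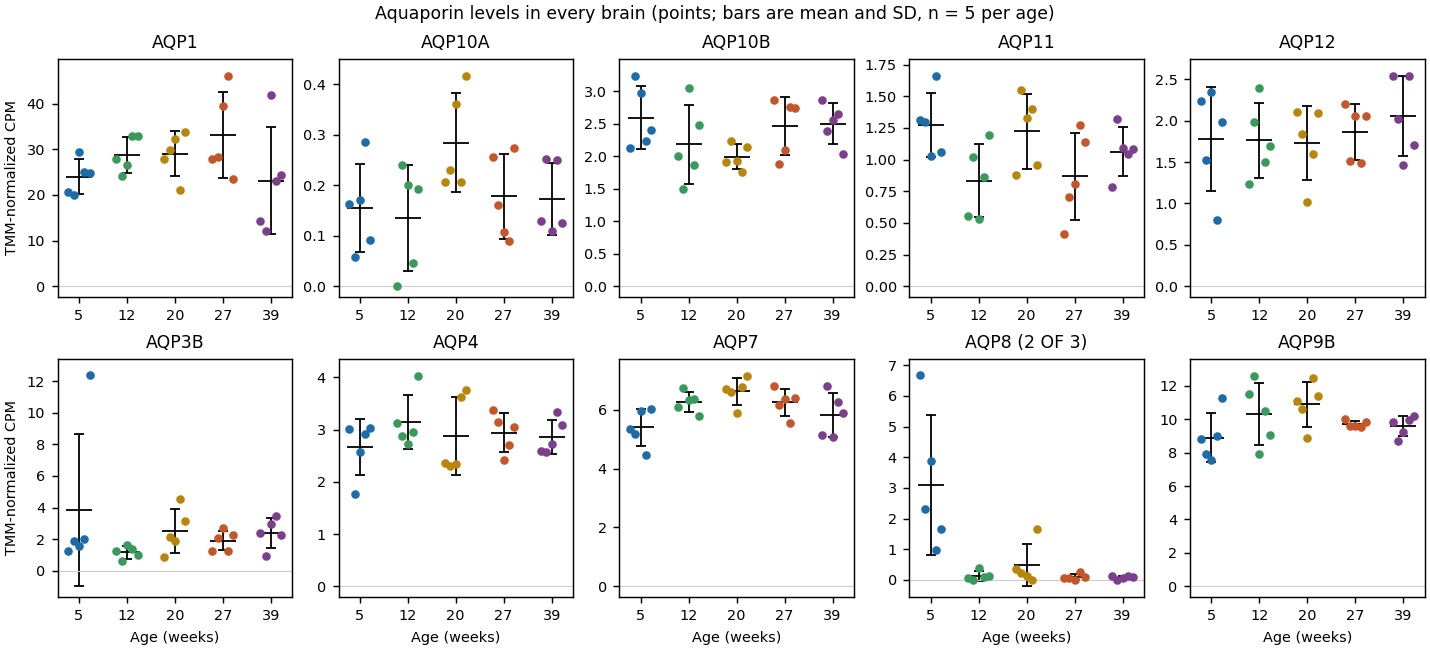
Level of each of the 10 aquaporins in every brain, in TMM-normalized CPM (vertical axes include 0 and differ between panels) against age in weeks; points are brains, bars the mean and SD of 5. The highest values of AQP8 (2 OF 3) are in 5-week brains, at 0.973 to 6.67 CPM, a range that also holds 20-week brain JM86 (1.67 CPM). For AQP3B 1 brain of 5 weeks stands far above the rest (12.4 CPM), and the 2 lowest and 1 of the highest values of AQP1 are all at 39 weeks.

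The level of AQP8 (2 OF 3) was 6.67 CPM in 5-week brain JM100, 3.88 in JM103, 2.3 in JM101, 1.66 in JM97 and 0.973 in JM96, which rest on 122, 68, 39, 36 and 17 counts. At 12 weeks it was 0, 0.0558, 0.0912, 0.115 and 0.399 CPM, which is 0 to 6 counts. At 20 weeks 4 brains had 0, 0.12, 0.23 and 0.36 CPM, and brain JM86 had 1.67 CPM from 28 counts. At 27 weeks the range was 0 to 0.271 CPM and at 39 weeks 0 to 0.13 CPM. The 5-week brains thus lay above all brains of 12, 27 and 39 weeks, and overlapped with 20 weeks through JM86 alone. Among the 20 brains of 12 weeks and older, 4 had no count, and counting error is large for the rest.

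From 5 to 12 weeks the fitted log2 fold change of AQP8 (2 OF 3) was -4.56 with a standard error of 0.78, a 23.6-fold lower level (edgeR, adjusted p = 0.00022). The value for 20 weeks was -2.71 with a standard error of 0.66 (adjusted p = 0.0032), that for 27 weeks -4.89 with 0.80 (adjusted p = 6.9e-05) and that for 39 weeks -5.14 with 0.83 (adjusted p = 4.6e-05). In order of mean level, 5 weeks stood first and differed from 20 weeks, the next, while 20, 12, 27 and 39 weeks did not differ between neighbours (adjusted p of 0.51 to 0.94). Without brain JM86 the value for 20 weeks was -4.07 (adjusted p = 0.00015), without 12-week brain JM107 the value for 12 weeks was -5.31, and without 27-week brain JM69 that for 27 weeks was -5.76. These 3 brains are among 6 libraries with a title mark, w0w1, that the labels do not explain. The other marked brains had the lowest levels of their ages, 0.973 CPM in 5-week brain JM96 and 0 in 12-week JM105 and 39-week JM12. Without all 6 libraries the values for 12, 20 and 27 weeks were -5.23, -4.30 and -5.99. The 4 calls were kept in each of 32 other settings of the fit. The gene passed the filter only through its 5-week level, with 6 libraries over the filter's 0.549 CPM, 5 of them of 5 weeks and the sixth JM86, so that a tested AQP8 (2 OF 3) had to be high there.

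In whole brains, fewer cells of a type and less RNA per cell cannot be told apart, and tissue from beside the brain could carry a water channel of epithelia. Markers of other tissues are therefore given beside the fall of AQP8 (2 OF 3). Of 8 tested markers of gut, liver and kidney, organs of which some carry AQP8 in mammals, 0 were called between 5 and 12 weeks by edgeR (1 at an unadjusted p under 0.05, and 0 with DESeq2), against 23.6% of all genes, and 2 were higher at 39 than at 5 weeks, against 18% of all genes. Their median log2 fold change was 0.29 from 5 to 12 and 0.19 from 5 to 39 weeks. Their summed level was 2730.0 to 3936 CPM at 5 weeks and 1994 to 3308 CPM at 12 weeks, and none of the 9 was at 0 in every library. In the brains with most AQP8 (2 OF 3), this sum was the highest of its age at 12 weeks (JM107, 3308 CPM) and 27 weeks (JM69, 4083 CPM). At 5 weeks JM100 had 3262 CPM, below JM103 with 3936. At 20 weeks JM86 had 1869 CPM in a range of 1852 to 2670.4. The 39-week brain JM1 had 2195 CPM in a range of 2157 to 3283. Of 7 markers of skin and other surface epithelium, 2 were lower at 12 weeks (13% of all genes were) while 4 were lower and 1 was higher at 39 weeks (18.7% and 18% of all genes), with summed levels of 19 to 31.3 CPM at 5, 18.3 to 28.2 at 12 and 16.9 to 34.3 at 39 weeks. The 2 lower at 12 weeks were AGR2, a disulfide isomerase of secretory cells that the fish brain itself also expresses, so that it does not mark surface tissue alone (-2.68 on the log2 scale, standard error 0.83, adjusted p = 0.022), and AP1M2, a sorting adaptor of epithelial cells (log2 fold change -1.06, adjusted p = 0.027). AGR2 had 8.25 CPM in JM101, 1.38 in JM97 and 0.109 in JM100, the 5-week brain with most AQP8 (2 OF 3), and it had 1.49 CPM in JM86, its highest value at 20 weeks. Among the 5-week brains AP1M2 was also highest in JM101, at 3.06 CPM, where the others had 0.875 to 1.38 CPM. The meninges are the tissue that lies against the brain. Of their 4 markers, 1 was lower at 12 and at 39 weeks, against 13% and 18.7% of all genes. None was higher, against 10.6% and 18%. The summed level was 85.7 to 108 CPM at 5, 75.8 to 85.8 at 12, 59 to 89.7 at 20, 50.2 to 89.4 at 27 and 57.2 to 71.4 at 39 weeks. The marker called was ALDH1A2, which makes retinoic acid (-0.35 on the log2 scale at 12 weeks, adjusted p = 0.027, and -0.66 at 39 weeks, adjusted p = 7.1e-05), and the median of the 4 was -0.16 and -0.72. ALDH1A2 made up most of the sum, with means of 80.4 CPM at 5 and 63.2 CPM at 12 weeks. At 5 and at 12 weeks the brain with most AQP8 (2 OF 3) also had the highest meninges sum (JM100 with 108 and JM107 with 85.8 CPM). At the later ages it did not. JM86 had 70.9 CPM and 39-week brain JM1 63.2 CPM, each the median of its age, and 27-week brain JM69 had 77 CPM, below JM72 with 89.4. Of 2 pineal markers, 1 was lower at 12 weeks, against 13% of all genes. It was ASMT, which makes melatonin (-1.95 on the log2 scale, adjusted p = 0.02), and it was not lower at 39 weeks (0.04, adjusted p = 0.96). The sum of both pineal markers was 2.77 to 3.21 CPM at 5, 0.361 to 2.86 at 12 and 1.79 to 5.04 at 39 weeks, with 0.238 CPM in JM86. The 2.86 CPM were in JM107, the 12-week brain with most AQP8 (2 OF 3), where the others of that age had 0.361 to 1.32 CPM. At 5 weeks JM100 had 2.9 CPM, and the highest sum, 3.21 CPM, was in JM96. Between 5 and 12 weeks 1 of 5 retina and lens markers was lower, against 13% of all genes. In the same comparison 0 of 5 markers of motile cilia and 0 of 4 tested skeletal muscle markers were called by edgeR, against 23.6% of all genes (0 and 0 at an unadjusted p under 0.05, and 0 and 0 with DESeq2). The part of these tissues in the result was not tested.

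AQP1 was the most abundant aquaporin. From the youngest to the oldest age, its means were 24 ± 3.84, 28.9 ± 3.95, 29 ± 4.94, 33.1 ± 9.41 and 23.2 ± 11.7 CPM (SD over 5 brains). The brains of 39 weeks were widely spread, at 14.4 CPM in JM1, 12.1 in JM12, 41.9 in JM13, 23.1 in JM15 and 24.3 in JM18. Both of the lowest levels among all 25 brains were thus at 39 weeks, beside 1 of the highest. The highest of all, 46.1 CPM, was in 27-week brain JM69. No comparison passed the test, and 5 against 27 weeks had the lowest adjusted p (0.46 on the log2 scale, standard error 0.24, adjusted p = 0.14). Neighbours in the order 27, 20, 12, 5 and 39 weeks did not differ by the test (adjusted p of 0.84, 1, 0.45 and 0.91). From 27 to 39 weeks the log2 fold change was -0.51, the largest in size for AQP1 (standard error 0.24, edgeR, unadjusted p = 0.046, adjusted p = 0.22). Without brain JM13 it was -0.83 and passed (adjusted p = 0.024), as did 12 against 39 weeks (log2 fold change -0.64, adjusted p = 0.039). In mammals red blood cells and many vessels outside the brain carry AQP1. The summed level of 5 red blood cell markers in the 39-week brains was 161 CPM in JM1, 134 in JM12, 148 in JM13, 146 in JM15 and 243 in JM18. That of 7 blood vessel markers was 140.0, 125, 152, 139.9 and 171 CPM in the same order. At 27 weeks JM69 had 188 CPM of red blood cell and 163 CPM of blood vessel markers, the highest of its age. JM66, next in AQP1 at that age with 39.6 CPM, had 145 and 129 CPM. From 12 to 39 weeks 2 of 5 red blood cell and 2 of 7 blood vessel markers were lower, against 6.76% of all genes. None of these markers was higher, against 5.72% of all genes. Their part in the spread of AQP1 was not tested.

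AQP4, the astrocyte channel of mammals, had means of 2.66 ± 0.534, 3.15 ± 0.512, 2.88 ± 0.742, 2.94 ± 0.377 and 2.86 ± 0.329 CPM from the youngest to the oldest age. Single brains ran from 1.77 CPM in 5-week brain JM101 to 4.03 CPM in 12-week brain JM113, and all ages overlapped. The log2 fold changes did not exceed 0.24 in size in any comparison (standard error 0.18 for 5 against 12 weeks), and the lowest adjusted p was 0.33. Changes within about 2 standard errors above or below each estimate are compatible with the data. The estimates thus bound the change and do not show that there was none. Fish have radial glia in place of most astrocytes. Of 6 radial glia markers 2 were higher and 1 was lower at 12 than at 5 weeks, against 10.6% of all genes higher and 13% lower. ALDH1L1, an enzyme of folate metabolism in astroglia, rose from 115 ± 11.5 to 179 ± 19.9 CPM (0.64 on the log2 scale, adjusted p = 0.042), and BCAN, the matrix proteoglycan brevican, fell from 358 ± 8.49 to 215 ± 31.7 CPM (log2 fold change -0.73, adjusted p = 0.015). The summed level of the 6 markers was 2701 to 3093 CPM at 5 weeks and 2943 to 3295 CPM at 39 weeks. ALDOCB made up most of this sum, with 1991 ± 136 CPM at 5 and 2403 ± 131 CPM at 39 weeks (log2 fold change 0.27, edgeR, adjusted p = 0.0079).

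Among the aquaglyceroporins, AQP3B stood out by a single brain. In 5-week brain JM97 it had 12.4 CPM from 268 counts, where the other brains of that age had 1.26 (JM100), 1.6 (JM103), 1.89 (JM101) and 2 CPM (JM96). At 12 weeks the 5 brains had 0.601 to 1.66 CPM, at 20 weeks 0.875 to 4.55, at 27 weeks 1.27 to 2.69 and at 39 weeks 0.945 to 3.46 CPM. The group means were 3.82, 1.18, 2.52, 1.92 and 2.42 CPM, and the ages overlapped. AQP3B was called lower at 12 than at 5 weeks by edgeR (log2 fold change -1.71 with a standard error of 0.55, adjusted p = 0.027), with 5-week levels of 1.26 to 2 CPM in the 4 brains other than JM97 against 0.601 to 1.66. The call ended without brain JM97 (log2 fold change -0.52, adjusted p = 0.36), and also without 12-week brains JM105 (-1.55, adjusted p = 0.069) or JM113 (-1.65, adjusted p = 0.063). It also ended with the 10 libraries of both ages alone (adjusted p = 0.089) and when the 6 libraries marked w0w1 were left out (adjusted p = 0.077). In each of the 9 other comparisons AQP3B did not pass, and neighbours in the order 5, 20, 39, 27 and 12 weeks did not differ (lowest adjusted p 0.39).

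AQP3 is a channel of skin and other surface epithelia in mammals and fish. In JM97 the summed level of the 7 skin and surface epithelium markers was 23.6 CPM, within the 19 to 31.3 CPM of its age, and that of the 5 skeletal muscle markers was 32 CPM, where the others had 6.01 to 13.5 CPM and JM96 65.3. The next highest AQP3B, 4.55 CPM in 20-week brain JM84, came with 79 CPM of the skin and surface epithelium markers, the highest sum of all 25 brains, and with 45.8 CPM of the muscle markers. This epithelium sum did not reflect the whole list. AGR2 had 0.155 CPM in JM84, its lowest at 20 weeks, and AP1M2 0.776 CPM. At 20 weeks BNC1 had at most 6.72 and BSPRY at most 0.715 CPM. Most of the sum in JM84 thus came from ABCA12, ASPRV1 and AREGB together. The highest muscle sums were in JM96 (65.3 CPM), which had 2 CPM of AQP3B, and in 39-week brain JM15 (57.1 CPM), which had 3.46 CPM, the most of its age and the third highest of all. Their part in the level of AQP3B was not tested.

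AQP7, a glycerol channel of fat cells in mammals, was higher at 20 than at 5 weeks. Its levels at 5 weeks were 5.36 (JM100), 5.19 (JM101), 5.94 (JM103), 4.47 (JM96) and 6.04 CPM (JM97), and at 20 weeks 6.69 (JM75), 6.6 (JM79), 5.9 (JM82), 6.78 (JM84) and 7.15 CPM (JM86). The ages overlapped in JM82, which lay below 2 of the 5-week brains. The log2 fold change was 0.29 (standard error 0.11, adjusted p = 0.036), a 1.23-fold higher level. The call was lost in 8 of 32 other settings, with adjusted p up to 0.19, among them without 5-week brains JM100 (0.091), JM101 (0.074) or JM96 (0.11), without 20-week brains JM75 (0.059), JM84 (0.066) or JM86 (0.086), with the libraries of both ages alone (0.087) and with those marked w0w1 left out (0.19). At the other ages the means were 6.26 CPM (12 weeks), 6.26 (27 weeks) and 5.83 (39 weeks), with adjusted p from 5 weeks of 0.15, 0.12 and 0.45. The row C18ORF10, with which AQP7 shares its zebrafish gene, was also higher at 12 weeks (log2 fold change 0.32, adjusted p = 0.016) and at 20 weeks (0.40, adjusted p = 0.0028) than at 5 weeks. Over the 25 libraries the log2 CPM of both rows had r = 0.57, and r = 0.20 for the deviations from the age means.

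AQP9B, in mammals the glycerol channel of liver, was the second aquaporin in abundance. Its means were 8.9 ± 1.45, 10.3 ± 1.88, 10.9 ± 1.32, 9.7 ± 0.197 and 9.59 ± 0.612 CPM from the youngest to the oldest age. At 27 weeks the 5 brains lay between 9.53 and 9.99 CPM, a much smaller spread than the 7.54 to 11.3 CPM at 5 weeks, which was not tested. From 5 to 20 weeks the log2 fold change was 0.29 (standard error 0.12), as large as that of AQP7, and did not pass (adjusted p = 0.07). It passed without 5-week brain JM97 (0.39, adjusted p = 0.016), 20-week brain JM82 (0.35, adjusted p = 0.032) or 12-week brain JM107 (0.29, adjusted p = 0.048).

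Of the 2 copies of AQP10, a glycerol channel of the intestine in mammals, AQP10B had means of 2.6 ± 0.485, 2.19 ± 0.604, 2 ± 0.194, 2.47 ± 0.443 and 2.5 ± 0.31 CPM in the same order of ages. It was not called in any comparison, with its largest log2 fold change, -0.38, from 5 to 20 weeks (standard error 0.18, adjusted p = 0.12). AQP10A had 0 to 7 counts in a library and 87 in all 25, and did not pass the filter. Its range was 0.0589 to 0.286 CPM in the 5-week brains, 0 to 0.24 in those of 12 weeks, 0.206 to 0.417 in those of 20 weeks, 0.0904 to 0.274 in those of 27 weeks and 0.109 to 0.252 in the oldest. Where it was tested, without a filter in edgeR and with DESeq2, no comparison passed. These few counts limit what the test can show, and a p that misses the threshold does not show that the ages were alike.

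In the branch of intracellular aquaporins, AQP11, in mammals a channel of the endoplasmic reticulum, had 1.27 ± 0.253 CPM at 5 weeks and 0.834 ± 0.287 at 12 weeks (-0.58 on the log2 scale, standard error 0.27, adjusted p = 0.12). The later means were 1.22 ± 0.292, 0.866 ± 0.344 and 1.06 ± 0.193 CPM, and the ages overlapped. AQP12, known from the acinar cells of the mammalian pancreas, had means of 1.73 to 2.05 CPM at the 5 ages, single brains of 0.801 to 2.54 CPM and no adjusted p under 0.57.

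**Figure D2:**
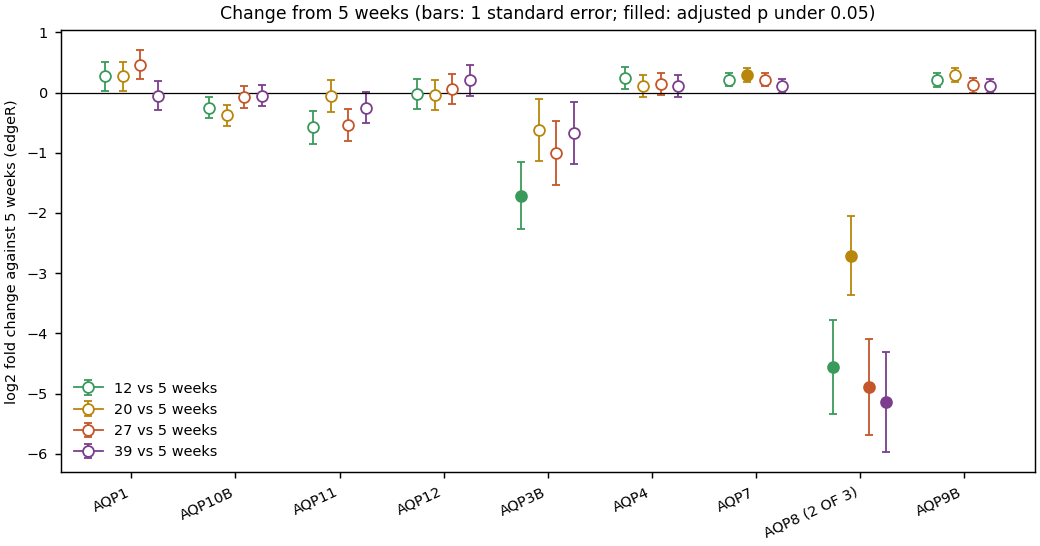
Log2 fold change of the 9 tested aquaporins at 12, 20, 27 and 39 weeks against 5 weeks (vertical axis, edgeR), with 1 standard error; filled points have an adjusted p under 0.05. AQP8 (2 OF 3) is lower at all 4 ages, from -2.71 to -5.14, while AQP3B (-1.71 at 12 weeks) and AQP7 (0.29 at 20 weeks) each have a single filled point.

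The order of the aquaporins per length was taken from the deposited RPKM, with a sign-flip permutation test of the log2 ratio of neighbours over 25 libraries (two-sided, 100000 resamples, pseudocount 0.01, adjusted over the 9 pairs). The mean RPKM was 22.1 for AQP1, 8.64 for AQP9B, 5.5 for AQP7, 4.38 for AQP3B, 1.48 for AQP4, 0.948 for AQP8 (2 OF 3), 0.523 for AQP11, 0.189 for AQP10B, 0.155 for AQP12 and 0.0132 for AQP10A. All 9 neighbour pairs differed by the test. AQP1 lay above AQP9B in 25 of 25 libraries (mean log2 ratio 1.31, SD 0.46, adjusted permutation p = 1.8e-05, from the smallest p of 1e-05 that the resamples can give), and AQP9B above AQP7 in 25 of 25. AQP7 lay above AQP3B in 21 (adjusted permutation p = 0.0019) and AQP10B above AQP12 in 19 (adjusted permutation p = 0.0006). By mean RPKM, AQP8 (2 OF 3) lay above AQP11 through the brains of 5 weeks, but was the higher in only 8 of 25 libraries, and its mean log2 ratio was -1.34 (adjusted permutation p = 0.022), the opposite of the order of the means. This difference no longer passed with a pseudocount of 0.1 (-0.60) or without libraries at 0 counts (-0.48). By the median of the 25 libraries, 6 of the 10 ranks were as by the mean.

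This order rests on the lengths behind the RPKM. The lengths implied by counts and RPKM were 14004 bases for AQP10A, 12443 for AQP10B and 11849 for AQP12, longer than their whole genes in RefSeq (10775, 8264 and 1997 bases), which places these 3 lower per length than the RefSeq genes would. Of the 10 members, 7 have a RefSeq symbol of the same name, and the other 4 of these had implied lengths within the gene. By CPM, which is not per length, AQP1, AQP9B and AQP7 kept the first 3 places, while AQP4 lay above AQP3B (mean log2 ratio of AQP3B to AQP4 -0.59) and AQP10B above AQP11 (mean log2 ratio of AQP11 to AQP10B -1.20), both reversed against RPKM. CPM and fold changes of 1 row across ages are not scaled by these lengths. Whether the counts of the 3 rows longer than their genes come from the aquaporin alone was not tested.

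**Figure D3:**
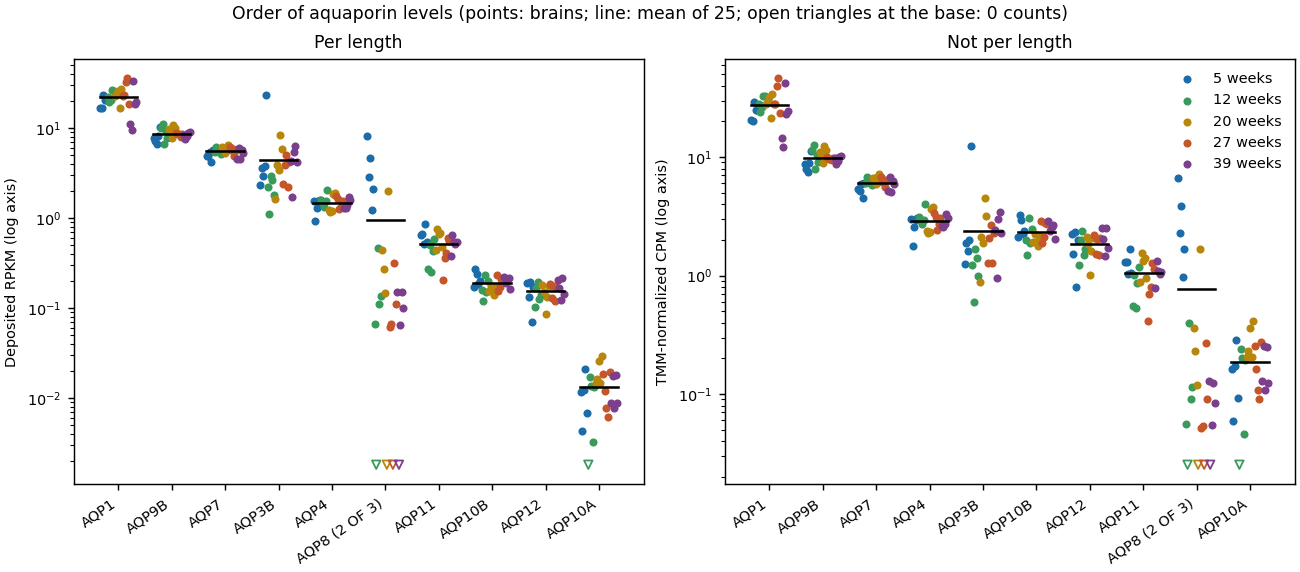
Levels of the 10 aquaporins in 25 brains on a log axis, ordered by their mean, as the deposited RPKM (left) and as TMM-normalized CPM (right); points are brains, lines means over 25, and open triangles at the base brains with 0 counts. AQP1, AQP9B and AQP7 lead on both scales. On the log axis AQP8 (2 OF 3) is spread most widely, from 0 to 6.67 CPM, though AQP1 spans more in CPM itself (12.1 to 46.1).

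The aquaporins varied largely apart from each other. Over the 25 libraries, which share their normalization, the log2 CPM (prior count 2) of the 9 tested members gave 36 pairs, with r from -0.67 to 0.48. The highest was AQP7 with AQP9B (r = 0.48, and 0.24 for the deviations from the age means), followed by AQP7 with AQP12 (0.46, and 0.65). The lowest was AQP9B with AQP10B (r = -0.67, and -0.58), both of them glycerol channels.

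Likeness was searched among the 1904 other named genes tested, out of 16484 genes tested in all. These names hold only the first part of the alphabet, so that genes nearer to an aquaporin may lie outside them. The named genes with the highest r to each aquaporin were listed, as a description with no test, since they are the extremes of many. For AQP8 (2 OF 3) they were ARPC2, a subunit of the actin-branching Arp2/3 complex (r = 0.86, rho = 0.80, and 0.63 for deviations from the age means), ANP32B, a nuclear phosphoprotein (0.83, rho = 0.59, and 0.38), and AURKC, an Aurora kinase of mitosis (0.83, rho = 0.51, and 0.31). ARPC2 had 134 ± 12.2 CPM at 5 weeks and means of 96.8 to 103 CPM later, a much smaller change than that of AQP8 (2 OF 3). Within the 20 libraries of 12 to 39 weeks the r of these genes was 0.50, 0.34 and 0.14. Without brain JM86 it was 0.90, 0.89 and 0.89 over the other libraries.

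For AQP3B the nearest genes were ALX4 (1 OF 2), a homeobox gene of mesenchyme (r = 0.68), ANXA1A, an annexin (0.62), and AATK (2 OF 2), a kinase (0.59). ALX4 (1 OF 2) had 2.49 CPM and ANXA1A 47.3 CPM in JM97, each the highest of the 5-week brains, where the others had up to 0.82 and 24.9 CPM. Without JM97 the r was 0.40, 0.46 and 0.57. For AQP9B they were ANKRD1, an ankyrin repeat protein known from muscle (r = 0.84, rho = 0.81), BX571813 (0.80) and BX601645 (0.80), with r of 0.83, 0.79 and 0.77 for the deviations from the age means. ANKRD1 was not called from 5 weeks to any other age. For AQP7 they were BX248496 (0.81), ASB13 (0.69) and ADAM10A, a membrane protease (0.69).

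The nearest genes of the other members had r of 0.56 to 0.75. For AQP1 the nearest were C10H21ORF63 (r = 0.75), ADD3A, an adducin of the membrane skeleton (0.67), and APIP, an enzyme of methionine salvage (0.65). For AQP4 they were C12H17ORF56 (0.67), ACBD5B, a peroxisomal protein (0.67), and BX571954 (0.65). AQP10B came nearest to APOOL, a protein of mitochondrial cristae (0.66), AIG1 (0.62) and BCAR3 (0.61). AQP11 came nearest to C12ORF26 (0.65), ARF4 (3 OF 5) (0.63) and ATP13A (0.61), and AQP12 to ATCAY (2 OF 2) (0.61), ABP1 (0.57) and AKTIP (0.56).

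**Figure D4:**
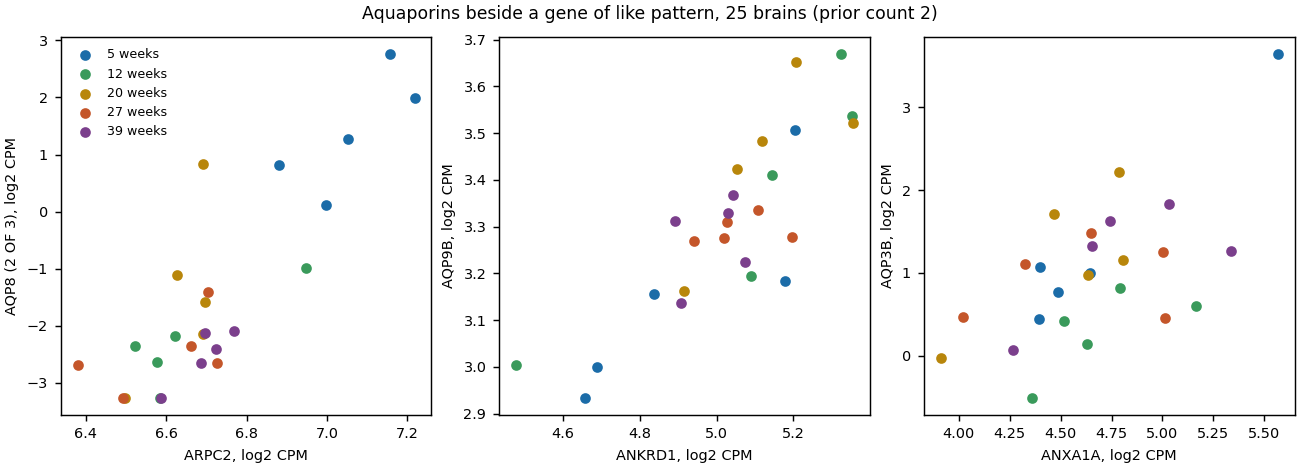
Log2 CPM (prior count 2) of an aquaporin (vertical axis) against a gene of like pattern (horizontal axis) in 25 brains, coloured by age. AQP8 (2 OF 3) and ARPC2 (r = 0.86) have their highest values in 5-week brains, which overlap with JM86 for AQP8 (2 OF 3) and with JM107 for ARPC2. AQP9B and ANKRD1 (r = 0.84) vary together at several ages, and AQP3B and ANXA1A (r = 0.62) owe much to 5-week brain JM97 (r = 0.46 without it).

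Other genes of water and solute balance are given for comparison. Of 18 tested genes of water and salt hormones and their receptors, 2 were higher and none lower at 12 than at 5 weeks, against 10.6% and 13% of all genes. At 39 weeks 2 were higher and none lower than at 5 weeks, against 18% and 18.7% of all genes. The C-type natriuretic peptide ANFC1_ORYLA had 162 ± 22.6 CPM in the 5-week brains and rose to 236 ± 33.2 by 12 weeks (log2 fold change 0.54, adjusted p = 0.0017) and 248 ± 24.3 by 39 weeks (0.61, adjusted p = 0.00025). AVPR1A (2 OF 2), a vasopressin-type receptor, was higher at 39 than at 5 weeks (5.83 ± 1.5 against 3.63 ± 0.619 CPM, adjusted p = 0.004). The median log2 fold change of the list was 0.14 from 5 to 12 and 0.02 from 5 to 39 weeks, where that of all genes was 0.01 in both. Between 12 and 39 weeks none was higher and 2 were lower, where 5.72% of all genes were higher and 6.76% lower.

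Of 10 subunits of the sodium potassium ATPase, the pump whose sodium gradient water follows, 1 was higher and none lower at 12 than at 5 weeks, against 10.6% and 13% of all genes. At 39 weeks 4 were lower and none was higher than at 5 weeks, against 18.7% of all genes lower and 18% higher. The 4 were ATP1B3A (619 ± 56.6 CPM at 5 and 469 ± 30.6 at 39 weeks, log2 fold change -0.40, adjusted p = 0.0036), the neuronal subunits ATP1A3B (-0.30, adjusted p = 0.023) and ATP1A3A (-0.27, adjusted p = 0.027), and ATP1A1B (-0.29, adjusted p = 0.026). The median of the 10 was -0.05 from 5 to 12 and -0.28 from 5 to 39 weeks. From 12 to 39 weeks 1 was lower and none higher, against 6.76% and 5.72% of all genes, with a median of -0.20. Of 13 genes of glycerol, urea and osmolyte metabolism, edgeR called 2 higher in the 39-week brains than in those of 5 weeks, and 4 lower, against 18% and 18.7% of all genes, with a median log2 fold change of 0.02. In the 12-week brains 1 was higher and 3 were lower than in those of 5 weeks, against 10.6% and 13% of all genes, with a median of -0.12, and from 12 to 39 weeks 0 of 13 were called by edgeR (3 at an unadjusted p under 0.05, and 1 with DESeq2), with a median of -0.04. Between 5 and 39 weeks ARG1 and ARG2, the arginases that make urea, rose with log2 fold changes of 1.07 (adjusted p = 2.2e-05) and 0.90 (adjusted p = 0.003). Over the same span ALDH7A1, which makes the osmolyte betaine, fell from 99.2 ± 12.4 to 61.7 ± 3.22 CPM (log2 fold change -0.68, adjusted p = 1.7e-05). AGPAT4, an enzyme of glycerolipid synthesis, was also lower at 39 than at 5 weeks (-0.57, adjusted p = 0.00088). The lists hold only genes from the first part of the alphabet, so that they cover each process in part.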

How the data were processed

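The authors mapped reads with Bowtie to transcript contigs and deposited counts, not normalized, and RPKM, scaled by contig length and library total. Per the submitters' processing notes, CASAVA, featureCounts 1.4.3-p1 and TopHat2 2.0.6 were used as well, with no step stated. Names came from the held part of the study's annotation table (1999 names), where shares of RPKM over the 5 ages matched 1 row within 3e-06 (1994 paired, 5 not). The members and lists were chosen with earlier results of these data known. All aquaporins were named, with the 3 nearest genes of each at 1 CPM or more, or called, and up to 4 called members of each list with the largest change, of which 1 is not reported here. TMM factors, filterByExpr and a robust quasi-likelihood fit on age over all 25 libraries were run in edgeR 4.0.16 (R 4.3.3), and DESeq2 1.42.0 was the alternative. The standard errors given with edgeR are the size of the log2 fold change divided by the square root of the F statistic. Other work used Python 3.11.15 (NumPy 2.4.6, SciPy 1.17.1, pandas 2.3.3, matplotlib 3.10.9). The fits and the sign-flip test were tested on simulated data. Later tables of these libraries were not used, since their rows could not be paired with these names. The study calls the samples of an age biological replicates. PCR reads carry no molecular identifiers, and depth bounds counting error only.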

Additional observations from a re-analysis of the deposited data

Results flagged for a closer look

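Levels were compared within each age for each of the 10 aquaporins, and a brain was listed where its gap to the nearest brain took up more than 0.71 of the range of its 5 (Dixon's criterion). Chance gives about 1 such group in 20, and 50 groups were examined. AQP3B had 12.4 CPM in 5-week brain JM97, with the next at 2. AQP8 (2 OF 3) had 1.67 CPM in 20-week brain JM86, with the next at 0.36, and 0.399 CPM in 12-week brain JM107, from 6 counts, with the next at 0.115. Brains JM86 and JM107 are both among the 6 whose titles carry the mark w0w1, and JM97 is not. Marked brains JM96, JM105 and JM12 had the lowest AQP8 (2 OF 3) of their ages.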

How the results depend on the processing

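The 4 calls of AQP8 (2 OF 3) from 5 weeks were kept in all 32 alternative settings, with log2 fold changes of -5.31 to -4.08 at 12, -4.30 to -2.24 at 20, -5.99 to -4.41 at 27 and -5.38 to -4.67 at 39 weeks. In the main fit this gene passed the filter only through its 5-week level. Refits of the same libraries do not undo that selection and are no separate support for the fall. With only the libraries of both ages in the fit, 1 aquaporin in place of 2 was called between 5 and 12 weeks and 1 in place of 2 between 5 and 20 weeks, and likewise 1 and 1 without the 6 libraries marked w0w1; both fits hold fewer libraries. With each library left out in turn, 1 to 2 aquaporins were called between 5 and 12 weeks, 1 to 3 between 5 and 20 weeks, 0 to 1 between 12 and 39 and between 27 and 39 weeks, and 1 to 2 over all ages. Over all genes, DESeq2 called 55 in place of 8 between 12 and 20 weeks, 122 in place of 5 between 12 and 27, 21 in place of 0 between 20 and 27, 514 in place of 44 between 20 and 39 and 961 in place of 163 between 27 and 39 weeks; without the libraries marked w0w1, 388 in place of 2057 were called between 12 and 39 weeks and 6 between 27 and 39 weeks. Of 84 aquaporin values not called, 32 changed sign in some setting and have no direction.

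The order by median RPKM shared 6 of 10 ranks with that by mean. With CPM in place of RPKM, an alternative chosen after seeing the data, the log2 ratios of AQP3B to AQP4 (-0.59) and of AQP11 to AQP10B (-1.20) were reversed; their lengths enter only RPKM. AQP8 (2 OF 3) and AQP11 no longer differed with a pseudocount of 0.1 (-0.60) or without libraries at 0 counts (-0.48). Of 27 nearest genes, 11 were kept with Spearman's rho and 5 with the 20 libraries of 12 to 39 weeks; the cause was not tested. The later count table was not run, since its rows could not be paired with these names. No paired analysis was possible because the ages share no replicate numbers. Counts below about 10 in a library limit AQP10A, AQP8 (2 OF 3) after 5 weeks and some brains of AQP11.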
